A study of Homo sapiens with 6 samples.

Results

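The zinc finger genes of chromosome 19 belong to the largest family of human transcription factor genes, and their RNA was followed here in A549 cells after knockdown of BAP18. Members were the genes of the deposited count table that carry a numbered ZNF symbol, have their first exon listed on chromosome 19 and hold at least 30 counts in every library. This rule took 140 of the 235 numbered ZNF genes listed on the chromosome, out of 35474 genes in all. It used neither the direction nor the size of any difference between groups. All 140 are protein coding in GENCODE 29, and all 140 were tested.

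A549 cells come from a human lung adenocarcinoma. The knockdown group, siBAP18, held 3 cultures transfected with siRNA against BAP18, and the control group, siCtrl, held 3 cultures transfected with a non-specific siRNA. RNA was taken 48 h after transfection, and the labels call the cultures of a group biological replicates without saying which BAP18 siRNA was used. All values come from 1 cell line and 1 time point.

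A C2H2 zinc finger is a short loop in which a cysteine pair and a histidine pair hold a zinc ion, and a row of such fingers reads a stretch of DNA. Many of these proteins also carry a KRAB domain, which binds the corepressor TRIM28 (KAP1). TRIM28 in turn brings the histone methyltransferase SETDB1, HP1 proteins and the NuRD complex to the bound site, and many KRAB zinc finger proteins silence transposable elements in this way. The genes arose by tandem duplication and lie in clusters, so neighbours are close relatives in sequence.

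The libraries held from 42094524 to 56548620 counts. BAP18 is listed as C17orf49, whose level fell from 15.1 ± 1.09 to 2.41 ± 0.235 CPM with siBAP18 (SD, n = 3 in both groups). The epithelial genes KRT7, KRT8 and KRT18 were at 548 RPKM or more in every library, and EPCAM at 23.3 RPKM or more, while 6 markers of blood, endothelium and fibroblasts lay at 0.197 RPKM or less (PTPRC, CD3E and DCN were not used here). RPKM are reads scaled to gene length and library total, and CPM are counts scaled to the TMM-adjusted library total, so only RPKM compare levels between genes. Mitochondrial genes took 6.87 to 7.43% of the counts in siCtrl libraries and 5.28 to 6.14% in siBAP18 libraries, and the bearing of this on the ZNF values was not tested.

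To learn how the family responded to loss of BAP18, counts of all 20776 genes that passed edgeR's filter were compared between siBAP18 and siCtrl libraries by the quasi-likelihood test of edgeR. Every adjusted p below is from edgeR's test, by the Benjamini-Hochberg method over all genes. Knockdown of BAP18 raised more of the ZNF genes than it lowered. Of the 140 members, 60 rose and 10 fell at an adjusted p under 0.05, and 70 did not pass. Rises were thus 42.9% of the members, where 24.5% of all genes tested rose, and falls were 7.14%, where 25.1% of all genes tested fell. A gene was called when its log2 fold change also lay beyond 1 in either direction. By that rule 15 members (10.7%) were called higher, beside 4.72% of all genes tested, and 0 were called lower, beside 3.74%. The genes tested include genes under the count minimum of the members. Of the 16119 genes that met this minimum, 27.1% rose and 29.5% fell, and 2.32% were called higher and 3.01% lower. At a fold of 1.5 in place of the log2 limit, 34 members were higher and 1 was lower, beside 10.4% and 11.3% of all genes tested.

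The median log2 fold change (log2FC) of the members was 0.28, and that of all genes tested was 0.001. The middle of the members ran from −0.06 at the lower quartile to 0.58 at the upper quartile, with extremes of −0.59 and 1.85. The difference lay above 0 for 100 members and below 0 for 40. In 67 members all siBAP18 libraries were above all siCtrl libraries, beside 27.6% of all genes tested, and in 11 members all were below, beside 29.0%. Most differences were small, with a tail of larger rises.

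**Figure D1:**
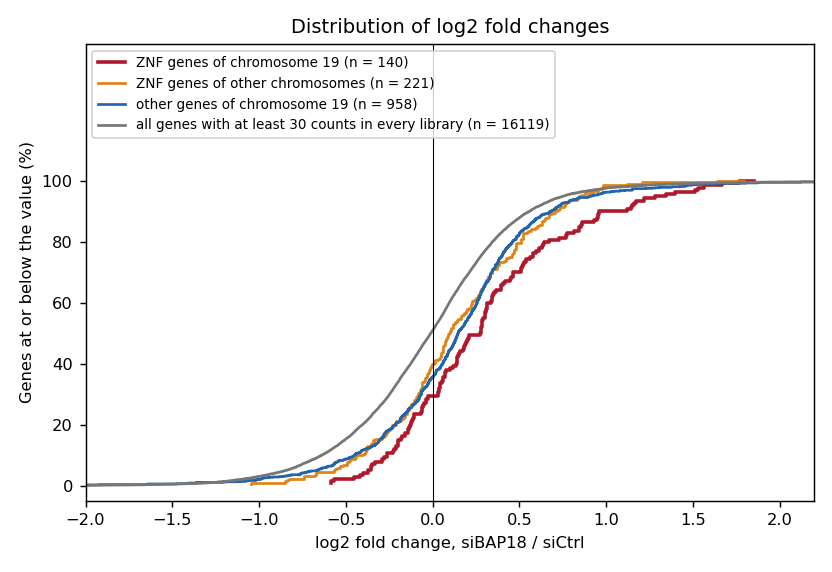
Cumulative share of genes (vertical axis, %) against the log2FC of siBAP18 over siCtrl (horizontal axis) for the 140 ZNF genes of chromosome 19, 221 ZNF genes of other chromosomes, 958 other genes of chromosome 19 and 16119 genes with at least 30 counts in every library. The curve of the chromosome 19 ZNF genes lies to the right, with a median of 0.28 beside 0.10, 0.15 and −0.01.

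The same pattern was read library by library. The 140 members together made up 0.0997%, 0.1008% and 0.1001% of each siCtrl library, and 0.119%, 0.125% and 0.11% of each siBAP18 library, in the order of their replicate numbers. Each siBAP18 library was above each siCtrl library in this share. Relative to the siCtrl mean, the median member was higher by 0.24, 0.30 and 0.20 on the log2 CPM scale in the siBAP18 replicates, and 102, 105 and 94 members lay above that mean. The siBAP18 replicate 3 library was the lowest of its group in both measures. In bulk RNA, a change in the number of cells that express a gene and a change in RNA per cell cannot be told apart.

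**Figure D2:**
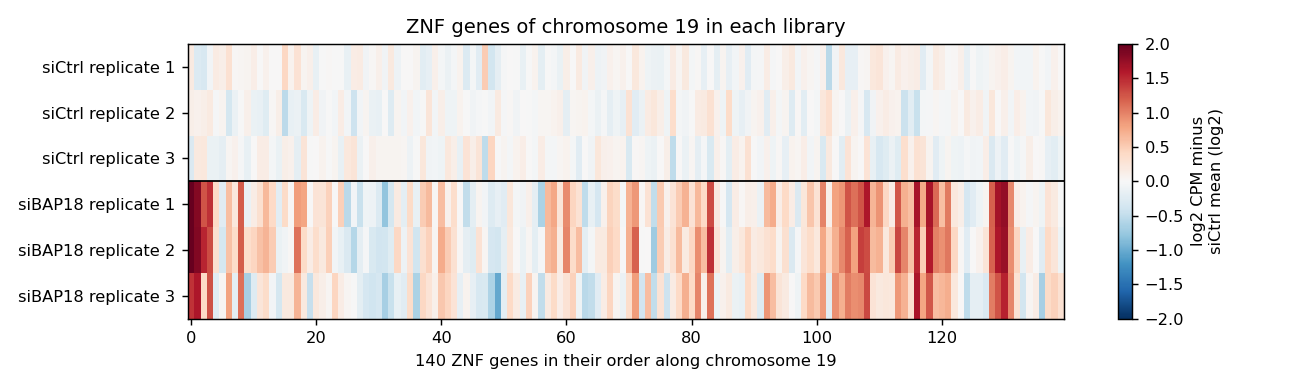
Log2 CPM of each ZNF gene minus its mean over the siCtrl libraries (colour, red higher and blue lower), with the 6 libraries as rows and the 140 genes as columns in their order along chromosome 19. Red columns recur in all 3 siBAP18 libraries at both ends of the chromosome, and the colour is paler in replicate 3.

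The comparison genes were held to the same count minimum. Of 221 numbered ZNF genes on other chromosomes, 84 rose and 31 fell, 4 were called higher and 1 lower, and their median log2FC was 0.10. Of 958 other genes of chromosome 19, 400 (41.8%) rose and 159 (16.6%) fell, 36 (3.76%) were called higher and 18 lower, and their median was 0.15. With offsets for GC content and length the last set split into 306 higher and 256 lower. Rises thus outnumbered falls among ZNF genes elsewhere and among other genes of the chromosome as well. Without these offsets, the share of rises among other chromosome 19 genes was close to the 42.9% of the members. Members fell in 7.14% of cases, and 10.7% were called higher. No test of the difference between these sets and the members was run.

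Members differed from one another by position along the chromosome, which is given as a description. Genes were joined into a cluster where the starts of neighbours lay within 1 Mb, which gave 17 clusters on GRCh38. The first cluster (2.82 to 2.95 Mb, on the short arm) and the last (55.5 to 58.5 Mb, near the end of the long arm) held 13 of the 15 called members. In the first, 4 of 4 members were called higher, with a median log2FC of 1.55. In the last, 32 of 48 members rose and 1 fell, 9 were called higher, and the median was 0.52. Among the 88 members outside both, 24 (27.3%) rose and 9 (10.2%) fell, 2 (2.27%) were called higher, and the median was 0.14. Their share of rises was near the background, where 24.5% of all genes tested and 27.1% of genes with the count minimum rose, while 25.1% and 29.5% fell. This last grouping was made after the values were seen.

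**Figure D3:**
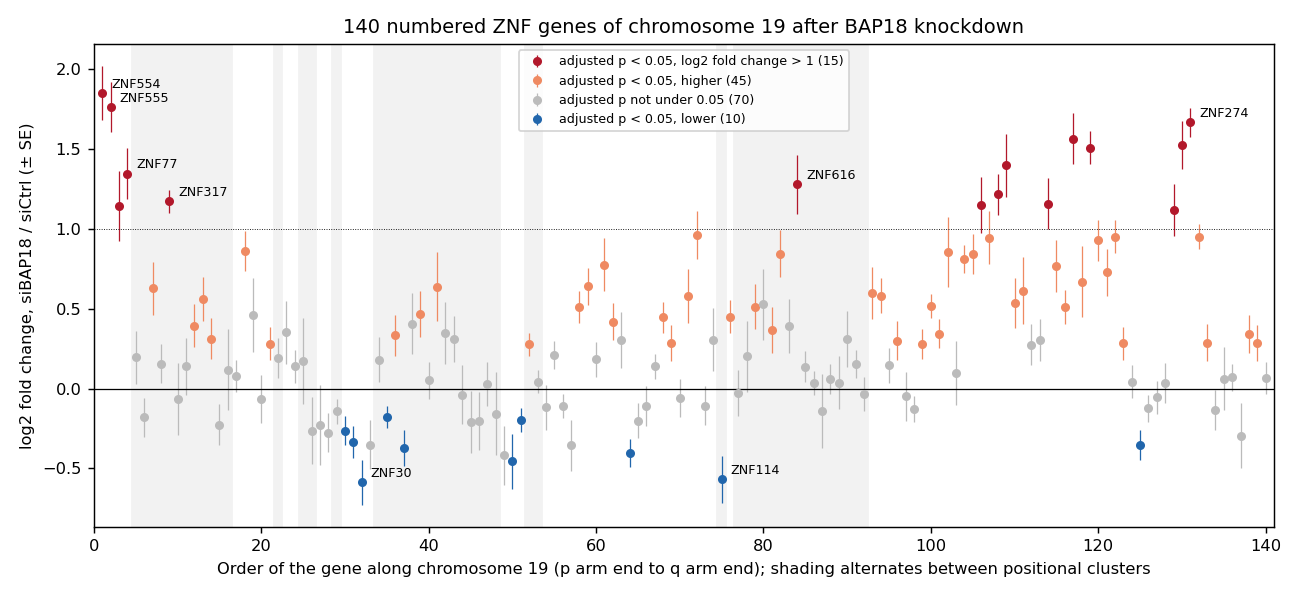
Log2 fold change of siBAP18 over siCtrl (vertical axis, bars are standard errors) of the 140 ZNF genes in their order along chromosome 19 (horizontal axis), with shading that alternates between clusters. The 15 called genes (dark red) stand mainly at both ends, and the 10 genes that fell (blue) lie mainly between.

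The first cluster holds ZNF554, ZNF555, ZNF57 and ZNF77, and these genes lie side by side with little else between them. Values of single libraries are given from here in the order of replicates 1, 2 and 3. ZNF554 (chr19:2819874-2835773, + strand) was at 1.71, 1.63 and 1.24 CPM in the siCtrl libraries and at 6.01, 6.34 and 4.14 CPM in the siBAP18 libraries. It had the largest log2FC of all members, 1.85 ± 0.170 (SE), at an adjusted p of 1.65e-09. ZNF555 (chr19:2841435-2860484, + strand) was at 1.18, 1.53 and 1.65 CPM in siCtrl and at 5.11, 5.17 and 4.42 CPM in siBAP18 cells. This gives a log2FC of 1.76 ± 0.157 (SE) at an adjusted p of 9.52e-10. In both genes the lowest siBAP18 library lay well above the highest siCtrl library.

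ZNF77 (chr19:2933218-2944971, − strand) was at 1.41, 1.66 and 1.33 CPM in siCtrl and at 4.02, 3.60 and 3.53 CPM in siBAP18 cells, a log2FC of 1.35 ± 0.161 (SE) at an adjusted p of 1.38e-07. ZNF57 (chr19:2900898-2918476, + strand) was at 1.11, 1.51 and 1.60 CPM in siCtrl and at 3.31, 4.01 and 1.83 CPM in siBAP18 cells. This gives a log2FC of 1.14 ± 0.221 (SE) at an adjusted p of 1.17e-04. The groups did not overlap in either gene, but siBAP18 replicate 3 of ZNF57 lay just above the siCtrl libraries, and the log2FC of ZNF57 was 0.90 without siBAP18 replicate 2 and 0.99 without siCtrl replicate 1. An antisense gene overlaps ZNF555 on the opposite strand, and another overlaps ZNF57.

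ZNF556 lies between ZNF555 and ZNF57 and was not a member, since its lowest count was 0. It was chosen for description after its values were seen. Its counts were 0, 2 and 0 in siCtrl and 46, 56 and 38 in siBAP18 cells, and no test is given for a gene chosen in this way. Relative to library totals this was a ratio of 67.3, which rests on only 2 counts in siCtrl and is therefore imprecise. No other gene with the count minimum lies within the bounds of the first cluster. Among 22 other genes within 500 kb of it, 8 rose and 3 fell, 0 were called higher, and the median log2FC was 0.15.

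The promoters of this cluster are shown because its genes rose together and 3 of them share a repeated word. The windows are RefSeq sequences of GRCh38.p14, from 250 bases before to 50 bases after the first listed start of each gene, read 5′ to 3′ on the strand of the gene. Capitals mark every match, on either strand, to 6 words that were searched. They are the CCAAT box as CCAAT, an ETS word as CCGGAAG and the core of an NRF1 site as GCATGCG. A YY1 word was searched as ATGGCGG, the core of a CRE as TGACGT and the TATA box as TATAAA. In the windows of this cluster all capitals are CCAAT or, on the other strand, ATTGG. The windows are chr19:2841225-2841524 (+) for ZNF555, chr19:2900678-2900977 (+) for ZNF57, chr19:2944922-2945221 (−) for ZNF77 and chr19:2819618-2819917 (+) for ZNF554.
ZNF555: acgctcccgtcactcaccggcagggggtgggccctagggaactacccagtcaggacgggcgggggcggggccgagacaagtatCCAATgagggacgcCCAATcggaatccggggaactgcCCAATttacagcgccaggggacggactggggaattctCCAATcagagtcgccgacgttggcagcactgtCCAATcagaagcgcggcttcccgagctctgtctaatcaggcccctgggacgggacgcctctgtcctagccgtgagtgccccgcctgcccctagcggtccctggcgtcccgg
ZNF57: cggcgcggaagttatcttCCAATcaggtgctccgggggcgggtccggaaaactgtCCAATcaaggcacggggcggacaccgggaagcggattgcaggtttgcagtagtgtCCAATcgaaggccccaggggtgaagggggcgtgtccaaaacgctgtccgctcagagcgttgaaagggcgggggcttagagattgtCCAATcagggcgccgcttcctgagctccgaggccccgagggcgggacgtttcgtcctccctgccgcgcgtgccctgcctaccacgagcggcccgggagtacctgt
ZNF77: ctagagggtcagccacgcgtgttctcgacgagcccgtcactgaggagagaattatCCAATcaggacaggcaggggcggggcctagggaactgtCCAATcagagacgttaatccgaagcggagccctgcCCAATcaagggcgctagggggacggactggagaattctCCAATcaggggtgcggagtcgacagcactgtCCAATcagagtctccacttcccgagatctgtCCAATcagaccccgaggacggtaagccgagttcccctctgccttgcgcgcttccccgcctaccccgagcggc
ZNF554: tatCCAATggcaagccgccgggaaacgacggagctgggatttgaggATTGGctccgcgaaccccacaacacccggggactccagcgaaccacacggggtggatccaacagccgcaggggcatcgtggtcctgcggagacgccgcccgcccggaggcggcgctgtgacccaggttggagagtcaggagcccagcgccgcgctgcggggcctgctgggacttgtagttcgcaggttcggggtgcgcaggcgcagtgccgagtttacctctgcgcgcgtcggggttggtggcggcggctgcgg

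ZNF77 held 6 copies of the CCAAT word, ZNF555 held 5, ZNF57 held 4 and ZNF554 held 2, and no match to the other 5 words was found in these windows. In ZNF555, ZNF57 and ZNF77 the copies lie on the same strand, all as CCAAT. This word is short, and 35.7% of 27305 RefSeq promoters of this length held at least 1 copy, as did 46.5% of the 129 members with a RefSeq window. The 27305 promoters were not held to the count minimum. At least 4 copies were found in 1.06% of all promoters and in 5 members (3.88%), a limit set after the sequences and values were seen. These 5 were ZNF555, ZNF77, ZNF57, ZNF317 and ZNF8, with log2FCs of 1.76, 1.35, 1.14, 1.17 and 0.29. All 5 rose, ZNF8 only at an adjusted p of 0.0455, and 4 were called higher, 3 of them neighbours in the first cluster. Among the 124 members with fewer copies, 51 rose and 11 were called. ZNF574, which has a second listed start with 4 copies, had a log2FC of 0.28 (adjusted p = 0.00238). A match is a word in a window, not a bound site.

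ZNF317, of the second cluster (7.07 to 9.79 Mb), had the highest RPKM of the called genes. It was at 19.5, 18.8 and 18.6 CPM in the siCtrl libraries and at 43.8, 43.9 and 40.7 CPM in the siBAP18 libraries. It showed a log2FC of 1.17 ± 0.0716 (SE) at an adjusted p of 1.03e-12, and libraries of a group lay close together. Of the 12 members in its cluster, 5 rose and 0 fell, and ZNF317 alone was called. Other genes within the bounds of that cluster rose in 23 of 40 cases and fell in 4.

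The last cluster, at 55.5 to 58.5 Mb, was the largest, and its rises ran through most of its length. ZNF274 encodes a KRAB zinc finger protein known to bring SETDB1 to the 3′ ends of zinc finger genes, including those of this chromosome. It was at 11.6, 11.4 and 9.11 CPM in the siCtrl libraries and at 35.9, 35.4 and 30.9 CPM in the siBAP18 libraries. ZNF274 showed a log2FC of 1.67 ± 0.0905 (SE) at an adjusted p of 1.12e-13, the smallest adjusted p of all members, and its exons overlap no other listed gene. ZNF274 RNA rose from 1.29 ± 0.173 RPKM (SD, n = 3) to 4.10 ± 0.456 RPKM (SD, n = 3).

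The promoter of ZNF274 (chr19:58182811-58183110, +) is shown as a contrast to those of the first cluster. Capitals mark 2 ETS words, as CTTCCGG, and 1 CRE core word, as ACGTCA, and it holds no CCAAT.
ZNF274: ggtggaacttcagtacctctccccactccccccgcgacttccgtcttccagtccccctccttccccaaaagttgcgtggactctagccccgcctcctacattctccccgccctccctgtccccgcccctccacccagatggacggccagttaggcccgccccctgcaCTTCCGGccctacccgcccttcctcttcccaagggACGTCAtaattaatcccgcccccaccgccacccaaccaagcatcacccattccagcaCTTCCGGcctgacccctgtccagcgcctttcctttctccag

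ZNF416, 1 of the cluster's called genes, was at 1.92, 1.27 and 2.14 CPM in siCtrl and at 5.44, 5.00 and 5.38 CPM in siBAP18 cells. This gives a log2FC of 1.56 ± 0.159 (SE) at an adjusted p of 9.37e-09, and its exons overlap ZIK1 on the opposite strand. ZNF134 was at 6.09, 6.15 and 6.46 CPM in siCtrl and at 19.5, 18.7 and 14.8 CPM in siBAP18 cells, a log2FC of 1.51 ± 0.102 (SE) at an adjusted p of 6.82e-12. ZNF329 was at 1.86, 1.76 and 1.63 CPM in siCtrl and at 5.55, 5.36 and 4.17 CPM in siBAP18 cells, a log2FC of 1.53 ± 0.151 (SE) at an adjusted p of 6.06e-09. The groups were well apart in all of these genes, and siBAP18 replicate 3 was the lowest siBAP18 library in ZNF134 and ZNF329.

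The other called genes of the last cluster were ZNF547 (log2FC 1.4), ZNF304 (1.22), ZNF773 (1.16), ZNF805 (1.15) and ZNF606 (1.12). ZNF304 was at 2.90, 2.80 and 2.87 CPM in siCtrl and at 6.80, 7.45 and 5.55 CPM in siBAP18 cells (adjusted p = 2.30e-08). In ZNF547 the groups lay at 0.796 to 1.20 CPM in siCtrl and 2.43 to 3.03 CPM in siBAP18 cells. Exons of ZNF547 and ZNF773 overlap another listed gene on the same strand, so reads there could have been split or shared, and ZNF606 fell just short of a log2FC of 1, at 0.99, without siCtrl replicate 3.

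Rises in the last cluster were not limited to called genes. ZNF544 (log2FC 0.95), ZNF776 (0.95), ZNF543 (0.95), ZNF211 (0.93), ZNF264 (0.84) and ZNF71 (0.81) also rose. A run of neighbours within it did not follow, with ZNF587B lower (−0.35) and ZNF814 (−0.12), ZNF587 (−0.05), ZNF417 (0.03) and ZNF552 (0.04) not past the test. ZNF587B fell from 15.1 ± 1.85 to 11.8 ± 1.11 CPM (SD, n = 3 each, adjusted p = 0.00333), but its exons overlap ZNF586 on the same strand, and ZNF586 rose by 0.28. Without siCtrl replicate 2 the adjusted p of ZNF587B was 0.0511, and the gene passed in neither fit of RPKM values. Among the 34 other genes within the bounds of the last cluster, 18 rose and 2 fell, and 5 were called higher. Rises in that region were therefore not limited to genes with a numbered ZNF symbol. The other genes can include zinc finger genes under other names and genes that share exons with members, and these were not set apart.

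**Figure D4:**
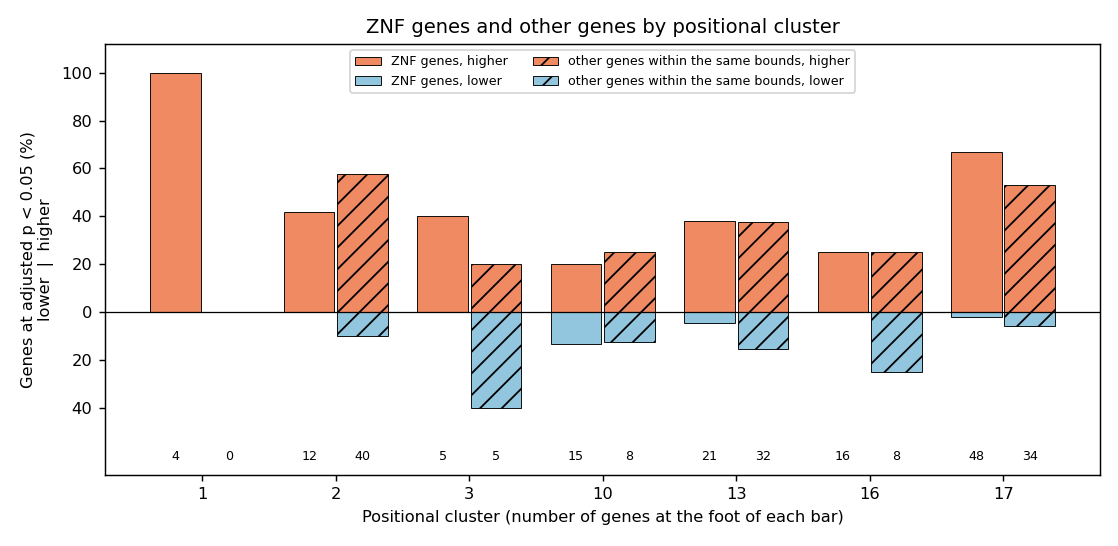
Share of genes that passed the test (vertical axis, %, rises above 0 and falls below) in each cluster with at least 5 ZNF genes and in the first cluster, for ZNF genes (plain bars) and other genes within the same bounds (hatched bars), with the number of genes at the foot and clusters numbered from the short arm end. All 4 ZNF genes of the first cluster and 32 of 48 in the last rose, and the first cluster has no hatched bar because no other gene there held the count minimum.

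In the clusters between the ends the share of rises lay on both sides of the 24.5% of all genes tested. At 43.5 to 45.1 Mb, 8 of 21 members (38.1%) rose and 1 fell, and ZNF229 (log2FC 0.96), ZNF222 (0.78) and ZNF155 (0.64) led the rises. At 51.6 to 53.6 Mb, 4 of 16 (25%) rose and 0 fell. ZNF616 of this cluster was at 1.24, 1.53 and 1.01 CPM in siCtrl and at 3.07, 3.41 and 2.64 CPM in siBAP18 cells, without overlap of the groups. This gives a log2FC of 1.28 ± 0.184 (SE) at an adjusted p of 2.29e-06. Exons of ZNF616 overlap another listed gene on the same strand. At 36.2 to 37.8 Mb, 3 of 15 (20.0%) rose and 2 fell, and at 11.5 to 12.6 Mb, 2 of 5 (40.0%) rose and 0 fell.

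Falls were fewer and smaller, and 9 of the 10 lay outside the first and last clusters. In the cluster at 34.7 to 35.0 Mb, 3 of 4 members fell and 0 rose, and in that at 40.0 to 40.1 Mb, 2 of 3 fell and 0 rose. Both clusters were picked after their values were seen. In all clusters of under 5 members pooled, 6 of 23 (26.1%) fell and 6 rose, where 25.1% of all genes tested fell and 24.5% rose. ZNF30 lies in the cluster at 34.7 to 35.0 Mb. It was at 4.16, 4.39 and 4.51 CPM in the siCtrl libraries and at 2.52, 3.39 and 2.74 CPM in the siBAP18 libraries. It had the most negative log2FC of the members, −0.59 ± 0.141 (SE), at an adjusted p of 0.0011, and its groups did not overlap. ZNF181 of the same cluster had a log2FC of −0.33 (adjusted p = 0.00796), which turned to 0.006 once GC content and length entered the fit, and its adjusted p was 0.0571 without siCtrl replicate 1.

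ZNF114 was at 3.59, 4.58 and 3.62 CPM in siCtrl and at 2.78, 2.40 and 2.79 CPM in siBAP18 cells, a log2FC of −0.57 ± 0.147 (SE) at an adjusted p of 0.00225. ZNF224 encodes a KRAB protein first known as a repressor of the aldolase A gene. It was at 21.7, 24.1 and 23.1 CPM in siCtrl and at 16.1, 20.1 and 15.7 CPM in siBAP18 cells, a log2FC of −0.40 ± 0.0880 (SE) at an adjusted p of 4.68e-04. The gap between groups was small in both genes, and that of ZNF224 did not pass with offsets for GC content and length (−0.11). ZNF260 (−0.37, adjusted p = 0.00813) did not pass in the same fit (−0.03) and in both fits of RPKM values. ZNF780B (−0.46, adjusted p = 0.029) and ZNF302 (−0.26, adjusted p = 0.0188) also fell, with overlap between the groups. Without siBAP18 replicate 3, ZNF780B was at −0.26 (adjusted p = 0.146) and ZNF302 at −0.20 (adjusted p = 0.0503). ZNF780B also did not pass without siCtrl replicate 2 or 3, and ZNF302 without siCtrl replicate 1 or 3. With offsets for GC content and length neither passed, at −0.10 and 0.07. ZNF780A, a close relative and neighbour of ZNF780B, had a log2FC of −0.20 (adjusted p = 0.0315) without overlap, which reversed to 0.16 with these offsets and then passed as higher (adjusted p = 0.0474). It did not pass without any 1 of the siCtrl libraries, without siBAP18 replicate 1, in the DESeq2 Wald test or in both fits of RPKM values.

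**Figure D5:**
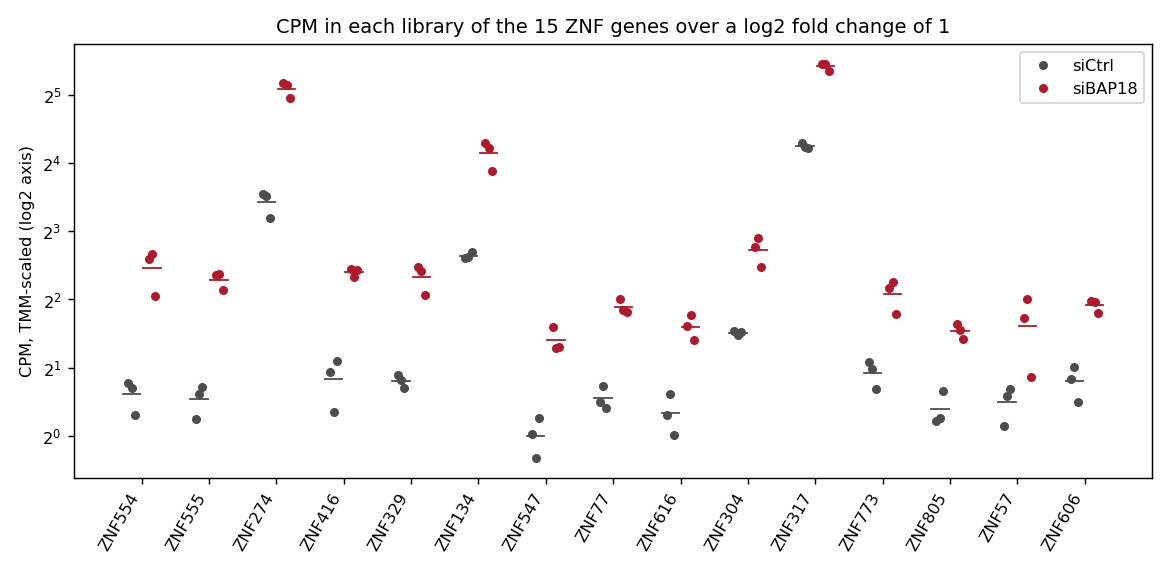
TMM-scaled CPM (vertical axis, log2 scale) in each siCtrl library (grey points) and each siBAP18 library (red points) for the 15 ZNF genes called higher, with group means as bars, in order of log2FC. The groups do not overlap in any of the 15, and the points of ZNF57 come closest.

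Levels spanned a wide range, from 0.101 to 25.2 RPKM with a median of 1.00 over the 6 libraries. ZNF428 was the highest at 26.1 ± 1.00 RPKM in siCtrl and 24.3 ± 1.59 RPKM in siBAP18 cells (SD, n = 3 each), a log2FC of −0.11 (adjusted p = 0.239). It passed as lower without siBAP18 replicate 3 (−0.19, adjusted p = 0.00883) and with offsets for GC content and length (−0.30, adjusted p = 7.37e-05). ZNF146, also known as OZF, consists almost wholly of fingers and followed at 22.8 ± 0.499 and 20.2 ± 1.61 RPKM (SD, n = 3 each). It was at 95.3, 91.3 and 97.1 CPM in siCtrl and at 82.2, 87.9 and 80.5 CPM in siBAP18 cells, without overlap. ZNF146 showed a log2FC of −0.18 ± 0.0663 (SE), at an adjusted p of 0.0277, which turned to 0.03 with offsets for GC content and length. It did not pass without siCtrl replicate 1 or 3 or siBAP18 replicate 1, and it passed in neither fit of RPKM values.

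ZNF574 (7.88 and 9.56 RPKM) and ZNF787 (7.12 and 10.2 RPKM) came next in siCtrl and siBAP18 cells, and both rose, by 0.28 and 0.52 on the log2 scale. ZNF526 was at 8.36 ± 0.344 and 8.64 ± 0.431 RPKM (SD, n = 3 each), a log2FC of 0.04 (adjusted p = 0.658). Members in the upper part of the RPKM range rose in 29 of 70 cases and fell in 9, and those in the lower part rose in 31 of 70 and fell in 1. Level and log2FC had a Spearman rho of −0.08 over the 140 members, which share libraries and in part sequence.

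Among further members with a known role, ZNF350 (ZBRK1), a KRAB protein that binds BRCA1, rose by 0.51 on the log2 scale, from 2.71 ± 0.0802 CPM in siCtrl to 3.86 ± 0.313 CPM in siBAP18 libraries (SD, n = 3, adjusted p = 0.00318 from edgeR). ZNF331, an imprinted gene in several tissues, was at 9.84 ± 0.480 and 9.55 ± 1.64 CPM (SD, n = 3 each) and did not pass (log2FC −0.04, adjusted p = 0.81). ZNF91, which represses SVA retrotransposons, and ZNF382 were not members. They held at most 10 and 6 counts in a library and were not tested.

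Features of the proteins were read from coding sequences of GENCODE 29. The members encode from 1 to 26 C2H2 fingers, with a median of 12, and 96 of 140 matched a pattern for the KRAB domain. Of these 96, 41 rose and 8 fell, 12 were called higher, and the median log2FC was 0.28. Of the 44 without a match, 19 rose and 2 fell, 3 were called higher, and the median was 0.20. The shares that rose, 42.7% and 43.2%, were nearly equal. Over the 140 members the log2FC had a Spearman rho of −0.07 with the number of fingers, −0.06 with the listed length and 0.24 with the GC content of the transcript (Pearson r 0.06).

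The promoters of the family differ from the average RefSeq promoter in the words they hold. The set of all promoters was not held to the count minimum or to coding genes. Whether other expressed genes share the differences in the TATA, YY1, CRE and NRF1 words was not tested. The ETS word CCGGAAG was found in 45.7% of the 129 members with a RefSeq window, in 36.3% of ZNF genes on other chromosomes, in 19.3% of other chromosome 19 genes and in 10.7% of all promoters. Among members that rose, fell and did not pass it was found in 26 of 56, 4 of 8 and 29 of 65. The TATA word TATAAA was found in 1.55% of members and 12.0% of all promoters, and the median number of CpG in a window was 22 in members and 14 in all, but 25 in ZNF genes elsewhere and 27 in other chromosome 19 genes. The YY1 word was found in 11.6% of members and 5.72% of all promoters, the CRE core in 14.0% and 8.32%, and the NRF1 core in 5.43% and 4.13%. By response, the CRE core was found in 21.4% of members that rose, 9.23% of those that did not pass and 0 of the 8 that fell, and the YY1 word in 12.5%, 12.3% and 0 of 8. These are counts of words, and no binding was measured.

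The corepressors through which KRAB proteins act were listed as a group of 33 genes, of which 32 were tested. In this group 16 (50%) fell and 7 (21.9%) rose, beside 25.1% and 24.5% of all genes tested, so the share that rose was near the background. Of the list, 2 (6.25%) were called lower, beside 3.74% of all genes tested, and 0 higher, and the median log2FC was −0.15. TRIM28, the scaffold that KRAB domains bind, was at 218, 211 and 221 CPM in siCtrl and at 183, 170 and 205 CPM in siBAP18 cells. The groups of TRIM28 did not overlap (log2FC −0.22, adjusted p = 0.0128), but it did not pass without siCtrl replicate 1, siCtrl replicate 3 or siBAP18 replicate 1, with an adjusted p of up to 0.0654. SETDB1, the methyltransferase, was at 55.7, 55.3 and 55.3 CPM in siCtrl and at 57.0, 56.3 and 56.7 CPM in siBAP18 cells (log2FC 0.03, adjusted p = 0.719).

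Other genes of the list fell further. UHRF1, which guides DNA methylation to newly copied DNA, was at 49.5, 50.5 and 54.2 CPM in siCtrl and at 16.4, 18.5 and 14.4 CPM in siBAP18 cells, a log2FC of −1.64 ± 0.0829 (SE) at an adjusted p of 2.94e-14. SMARCAD1, a remodeler that binds TRIM28, was at 14.4, 17.7 and 16.8 CPM in siCtrl and at 8.18, 8.66 and 7.30 CPM in siBAP18 cells, a log2FC of −1.01 ± 0.0960 (SE) at an adjusted p of 3.00e-09. These were the 2 called genes of the group, and neither showed overlap. The DNA methyltransferase DNMT1 (−0.72), the HP1 genes CBX3 (−0.70) and CBX5 (−0.64), the HUSH subunit MPHOSPH8 (−0.59) and the TRIM28 relative TRIM24 (−0.93) also fell. These were picked after their values were seen. The third HP1 gene, CBX1 (0.04), and the DNA methyltransferase DNMT3A (−0.05) did not pass, and DNMT3B fell (−0.42). The NuRD subunits MTA1 (0.47) and MBD3 (0.42) and the gene MORC2 (0.25) were among the 7 that rose, while the NuRD subunits RBBP4 (−0.41) and RBBP7 (−0.38) fell. Whether these changes bear on the ZNF genes was not tested.

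Members just inside the count minimum were ZNF846 and ZNF714, whose lowest library held 32 counts each. Just outside were ZNF823 and ZNF568, whose lowest library held 28 counts each. Their log2FCs were 0.12 and 0.17 inside and −0.60 and 0.63 outside, and none of the 4 passed the test. Of the 95 ZNF genes of the chromosome under the minimum, 40 were tested, of which 13 rose and 4 fell. Of these, 11 were called higher and 2 called lower. A gene can pass edgeR's filter through the group in which it is high, as ZNF556 did, so these counts are a description only.

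Exons of 82 members overlap another listed gene. Beside those marked above, these include ZNF780A and ZNF780B on the same strand. On the opposite strand they include ZNF304, ZNF606, ZNF114, ZNF224, ZNF260, ZNF146 and ZNF428. The libraries kept strand, but whether counting used it is not stated in the sources used here, so reads from opposite strands cannot be told apart there, and reads of near-identical relatives may be shared. Among the 58 members without such overlap, 26 rose and 3 fell, 7 were called higher, and the median log2FC was 0.20.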

How the data were processed

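Poly(A) RNA of 6 A549 cultures was sequenced as paired-end reads, and the authors deposited 2 tables for 35474 genes. The first holds whole-number read counts per gene, without normalization. The second holds RPKM, which the authors deposited and which were checked to equal the count divided by the listed gene length and the total of the column. The submitters' processing notes name the builds hg38 and GRCm38, and exon positions fit GRCh38. The aligner, the counting program and the use of strand are not given in the sources used here. Groups and replicate numbers came from the labels. Library totals ran from 42094524 to 56548620 counts.

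The members, gene lists and tests were chosen with earlier results of these data known. Of the listed genes, those kept by filterByExpr were TMM-scaled and tested with edgeR 4.0.16 (glmQLFit and glmQLFTest, R 4.3.3), with p-values adjusted over all 20776 genes. Each standard error (SE) was taken from the F statistic, as the size of the log2 fold change over its square root. Replicates differed beyond sampling noise, and more so among siBAP18 libraries. The chi-square of a pair was 4.17 to 4.87 times its degrees of freedom in siCtrl and 11.0 to 25.8 times in siBAP18. Tested on simulated data for siBAP18 against siCtrl, the steps recovered 200 of 200 changed genes and called 0 others, of 20455 genes. In the real libraries 5089 genes rose and 5216 fell, and recovery with that many changed genes was not tested.

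Named members were the 10 largest rises and up to 10 largest falls without overlap between groups, the 5 highest in RPKM, 8 genes of known function where they were members, the 2 nearest on each side of the count minimum, and of the corepressors TRIM28, SETDB1 and those called. Other members and corepressors named were chosen after their values were seen. RefSeq proteins were not used here, so fingers and KRAB domains were matched in coding sequences of GENCODE 29. Promoters were RefSeq windows of GRCh38.p14, found for 129 of 140 members, using the first listed start where a gene had several (21 members). Alternatives were other scalings and filters, DESeq2 1.42.0, limma 3.58.1 on log2 RPKM with a pseudocount of 1 or 0.1 (non-members over a mean of 0.5), offsets for GC content and length, a replicate block, each library left out, other member rules and a fold of 1.5. Python 3.11.15 drew the plots with matplotlib 3.10.9.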

Additional observations from a re-analysis of the deposited data

How the results depend on the processing

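The 15 called members were called again with DESeq2's size factors, upper-quartile scaling and total counts, without the filter, in the DESeq2 Wald test and with the replicate block, and 0 members were called lower in those fits. The direction of the family median held in every alternative run. With a library left out in turn, 47 to 64 members were higher, 6 to 16 lower and 14 to 18 called higher, the median was 0.22 to 0.28, the median of other chromosome 19 genes was 0.10 to 0.21, and 0 to 1 members of the last cluster fell. The lowest count of falls came without siCtrl replicate 3 and the highest without siBAP18 replicate 2. The DESeq2 Wald test gave 46 higher and 7 lower.

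Fits of RPKM values called fewer genes. With limma on log2(RPKM + 1), 4 members were lower, 2 were called higher, the median was 0.10, 18 ZNF genes of other chromosomes were lower and 0 members of the last cluster fell. On log2(RPKM + 0.1), the counts of falls were again 4, 18 and 0, and 12 members were called higher. The pseudocount pulls low genes towards 0.

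Offsets for GC content and length raised the members to 76 higher, 7 lower and 20 called, with medians of 0.35 for members, 0.19 for ZNF genes elsewhere and 0.0385 for other chromosome 19 genes. The other chromosome 19 genes then split into 306 higher and 256 lower, and 2 members of the last cluster fell. ZNF181 (0.00587), ZNF780A (0.159) and ZNF146 (0.0276) changed sign in this fit, ZNF780A then passing as higher, and the cause was not tested. Over the named genes followed through the alternatives, 532 values kept direction and side of the threshold. Of the rest, 23 no longer passed the test, 2 newly passed (both ZNF428) and 3 reversed. This count leaves out some members named after their values were seen, such as ZNF780B and ZNF302, which did not pass in several alternatives.

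Member rules of a mean of at least 30 counts and of at least 10 counts in every column each gave 1 member called lower, and 22 and 21 called higher, as more genes entered. Members without exon overlap gave 26 higher, 3 lower and 7 called, with a median of 0.20, as fewer genes entered. A fold of 1.5 gave 34 higher and 1 lower. Same-numbered libraries had residual correlations of 0.07, 0.23 and 0.11 across genes, and differently numbered ones from −0.17 to 0.07, most of them below 0. These values do not settle whether the numbers pair the libraries, and the main fit used no pairing. The replicate block gave 63 higher, 11 lower and 15 called, with a median of 0.28. With 3 libraries a group, several small falls rest on 1 library.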
